A study of Mus musculus with 57 samples.

Results

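The genes described here are 7 components of bone morphogenetic protein (BMP) signalling: the ligands Bmp2 and Bmp7, the secreted modulator Bmper, the receptor Bmpr1a, the inhibitor Smad6, and the targets Id2 and Id3. They were taken by gene symbol from a deposited table of 12087 genes, and all 7 had a row. They were described across 57 single cells from kidneys of mice at postnatal day 4 (P4), Theiler stage TS27, of genotype Tg(Crym-EGFP)82Gsat on a mixed background. This transgene expresses EGFP under control of Crym, and the dissociated kidney cells were sorted by fluorescence. The labels give as the component sampled the renal vesicle, the ball of new epithelium from which each nephron grows. All cells came from 1 pool of 2 kidneys and formed 1 labelled group, with no treatment and no second genotype. There is no replicate pool, so SDs and ranges are over cells, no p-value was computed, and differences between classes of cells are descriptions of this pool.

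BMPs are secreted ligands of the TGF-beta superfamily. They bind pairs of type I and type II receptor kinases, which phosphorylate Smad1, Smad5 and Smad9; these enter the nucleus with Smad4 and switch on target genes, the Id genes among them. Secreted proteins such as Bmper tune how much ligand reaches the receptors, and Smad6 and Smad7 limit the signal inside the cell. In the mouse kidney Bmp7 is required for nephron progenitors to persist, and the Id proteins hold back transcription factors of the basic helix-loop-helix family.

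The cells were put into 4 classes by the levels of 3 genes. Wt1, a transcription factor kept on in podocyte precursors at the proximal end of the vesicle, was counted at 20 RPKM (mapped reads scaled by gene length and by the total of the cell) or more. Sox9, a transcription factor, and Papss2, an enzyme that makes the sulfate donor of the cell, served as distal markers and were counted when either reached 20 RPKM. Wt1 alone reached the level in 29 cells (Wt1-only), Sox9 or Papss2 alone in 11 (distal-only), both sides in 7 and neither in 10. The lowest Wt1 value inside the threshold was 21.5 RPKM in cell 23 and the highest outside it was 10.9 RPKM in cell 47. For the higher of Sox9 and Papss2, the lowest value inside was 51.9 RPKM in cell 36 and the highest outside was 17.2 RPKM in cell 9. Markers that the rule did not use were checked against these names. Podxl, a surface protein of podocytes, was detected in 4 of 29 Wt1-only cells and in 0 of 11 distal-only cells, too few cells to order the classes. Pou3f3, a factor of the distal nephron, was detected in 1 of 29 Wt1-only cells and 9 of 11 distal-only cells, and the Notch ligand Dll1 in 3 and 9. Detected means 1 RPKM or more throughout.

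Of the 10 cells in neither class, 5 (cells 1, 25, 35, 46 and 58) were macrophage-like, with C1qb at 1000 RPKM or more. The summed RPKM of 10 macrophage markers ran from 7006 to 14960 in them, against 0 to 219 in Wt1-only cells and 0 to 180 in distal-only cells. C1qb, which selected these cells, is among the 10 markers and held 1589 to 2362 RPKM in them, so part of this contrast follows from the selection. Emr1, which the selection did not use, was detected in these 5 cells alone. All 5 had Pax8, an early marker of the renal vesicle, below 5 RPKM, as had cells 13 and 53. The label of renal vesicle therefore does not describe all 57 cells, and 50 had Pax8 at 5 RPKM or more. Depth, estimated from the values, ran from 0.475 to 2.29 M reads a cell, and 2809 to 6502 genes were detected per cell. The median depth was 1.48 M reads in Wt1-only, 1.56 in distal-only, 1.53 in both-class and 1.16 in neither-class cells. The median number of genes detected was 4275 in Wt1-only and 4385 in distal-only cells, but 5379 in the 7 both-class cells. Whether a chamber of that class held RNA of more than 1 cell was not tested. Of the markers fixed for other cell types with a row, endothelial ones (3 of 7 listed) summed to at most 73.1 RPKM in Wt1-only and 27.5 RPKM in distal-only cells. Stromal markers (7 of 8) had a median sum of 99.9 RPKM in Wt1-only and 147 RPKM in distal-only cells, with highest sums of 1782 and 546 RPKM. Aldh1a2 was detected in 14 of 29 Wt1-only and 10 of 11 distal-only cells, whereas Meis1 was detected in 12 of 29 and 1 of 11 and Meis2 in 14 of 29 and 2 of 11. The other 4 stromal markers were detected in 2 to 4 Wt1-only cells and in 0 distal-only cells. Ureteric bud markers (2 of 5) had median sums of 0 and 8.91 RPKM in Wt1-only and distal-only cells, with highest sums of 100 and 391 RPKM. Hoxb7 was detected in 10 of 29 Wt1-only and 9 of 11 distal-only cells, and Wnt11 in 1 and 0. The only erythroid marker with a row, Alas2, reached at most 5.56 RPKM in Wt1-only cells and was at 0 in distal-only cells. Nephron progenitor markers (5 of 6) summed to a median of 59.7 RPKM in Wt1-only and 124 RPKM in distal-only cells, but single markers differed in direction. Sall1 was detected in 24 of 29 Wt1-only and 11 of 11 distal-only cells and Cited1 in 0 and 2, whereas Eya1 was detected in 15 and 1, Osr1 in 2 and 0 and Six2 in 1 and 0. The part of these markers in the values below was not tested.

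Promoters of 5 members (Bmper, Bmpr1a, Smad6, Id2 and Id3) were available from RefSeq on build GRCm38.p6, and were searched for letters that Smad proteins bind. The searched window was 254 bases, from 250 before the start site to 4 past it, on both strands. The sequence GGCGCC, a GC-rich element bound by Smad1 and Smad5, was found at Id2 and Bmpr1a and in 9.68% of 32851 mouse promoters. The palindrome GTCTAGAC, also bound by Smads, was found at Smad6 and in 0.170% of promoters. The shorter Smad-binding element CAGAC, which overlaps no match of the other motifs here, was found at Id3 and in 43.0% of promoters. A match is a description of letters and not a site shown to be bound. The promoter stretches of the Id targets and of Smad6 are shown 5′ to 3′ because these genes are readouts of the pathway, with the matched letters in capitals; GTCTG in Id3 is a match of CAGAC on the other strand. The Id2 stretch is chr12:25096093-25096342 on the minus strand, the Id3 stretch chr4:136143572-136143821 on the plus strand, and the Smad6 stretch chr9:64022056-64022155 on the minus strand.
Id2: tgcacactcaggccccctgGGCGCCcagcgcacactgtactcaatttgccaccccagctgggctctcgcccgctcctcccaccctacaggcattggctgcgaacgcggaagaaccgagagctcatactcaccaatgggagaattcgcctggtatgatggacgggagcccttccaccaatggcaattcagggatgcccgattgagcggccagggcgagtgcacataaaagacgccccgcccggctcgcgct
Id3: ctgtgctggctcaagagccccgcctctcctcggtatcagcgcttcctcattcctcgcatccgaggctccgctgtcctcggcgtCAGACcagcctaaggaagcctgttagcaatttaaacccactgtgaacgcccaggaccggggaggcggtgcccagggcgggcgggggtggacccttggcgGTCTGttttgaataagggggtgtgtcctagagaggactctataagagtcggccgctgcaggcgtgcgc
Smad6: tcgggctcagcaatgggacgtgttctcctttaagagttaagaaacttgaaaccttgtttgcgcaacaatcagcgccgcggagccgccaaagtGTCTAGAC
The Id2 and Id3 stretches end at the base before the start site, and in Smad6 the palindrome spans the start site.

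The targets had the highest median levels of the 7 genes and were detected in the most cells. Id3 (chromosome 4, 135699737 to 135701307) was detected in 53 of 57 cells, 93.0% with an exact Clopper-Pearson 95% interval of 83.0 to 98.1%. Id2 (chromosome 12, 25778664 to 25780957) was detected in 48 cells, 84.2% (72.1 to 92.5%). Here and below, gene coordinates are those of the deposited table, on mm9 per the submitters' processing notes, and intervals cover only the chance of which cells were sampled from the pool. The receptor Bmpr1a (chromosome 14, 35224254 to 35315732) followed in 39 cells, 68.4% (54.8 to 80.1%). Bmp2 (chromosome 2, 133378935 to 133388621) was detected in 14 cells, 24.6% (14.1 to 37.8%), and Bmp7 (chromosome 2, 172695189 to 172765794) in 13 cells, 22.8% (12.7 to 35.8%). Bmper (chromosome 9, 23027520 to 23289646) was detected in 9 cells, 15.8% (7.48 to 27.9%), and Smad6 (chromosome 9, 63800883 to 63869866) in 4 cells, 7.02% (1.95 to 17.0%). The intervals of Id2 and Id3 overlap, as do those of Id2 and Bmpr1a and those of neighbours among Bmp2, Bmp7, Bmper and Smad6. All members were measured in the same cells, so overlap of separate intervals cannot settle the order of these neighbours, which was not tested. At any value above 0, Bmpr1a was found in 87.7% and Id2 in 91.2% of cells. The level of 1 RPKM is not the same number of reads for each gene. In the median cell 1 read was worth 0.714 RPKM for Id3, 0.535 for Id2 and 0.122 for Bmpr1a. With a minimum of 10 reads, chosen after seeing the data, the shares were 86.0% for Id3, 75.4% for Id2 and 66.7% for Bmpr1a. The median level over all cells was 593 RPKM for Id3, 133 RPKM for Id2 and 3.86 RPKM for Bmpr1a, and 0 for the other 4 members.

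**Figure D1:**
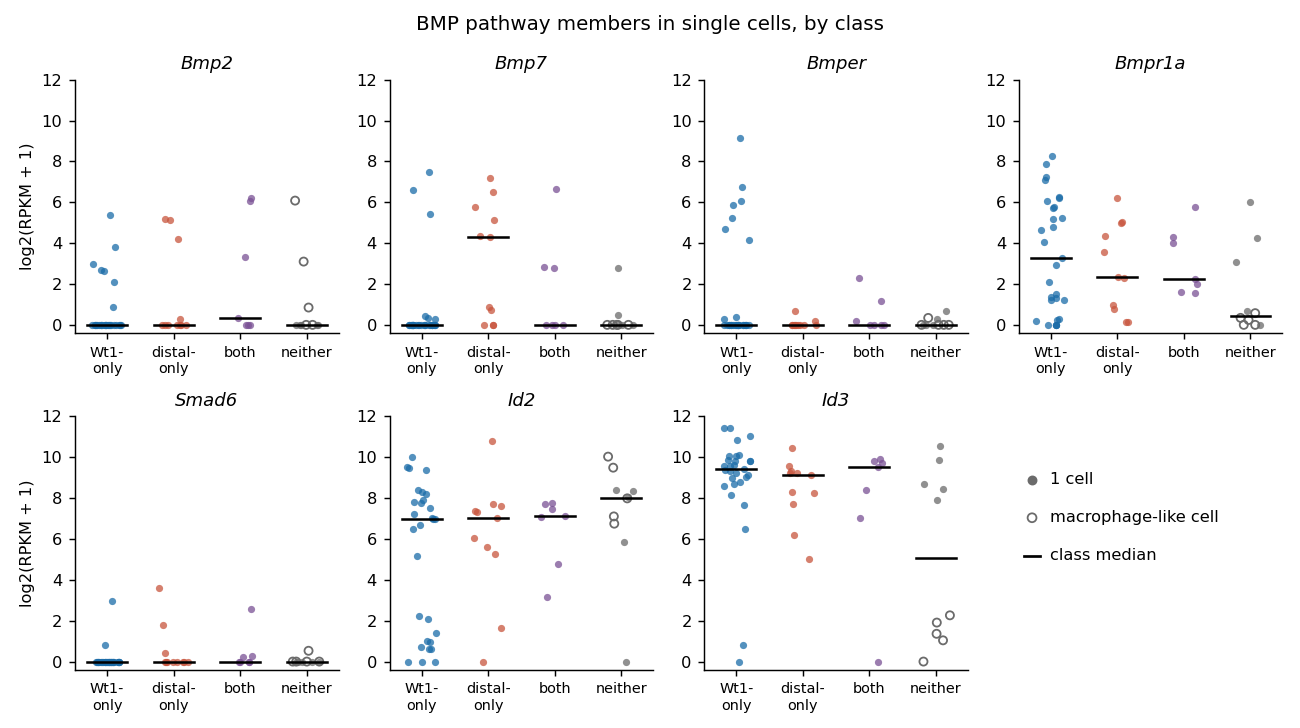
Level of each of the 7 members in single cells, as log2(RPKM + 1), in 29 Wt1-only, 11 distal-only, 7 both-class and 10 neither-class cells. Each point is 1 cell, open circles are the 5 macrophage-like cells and black lines are class medians; most cells lie at 0 for Bmp2, Bmp7, Bmper and Smad6, while Id3 is high in nearly all cells but the macrophage-like ones.

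Bmp7 was detected more often among distal-only than among Wt1-only cells. In Wt1-only cells it had 178 RPKM in cell 10, 97.2 in cell 34 and 41.9 in cell 27, and was below 1 RPKM in the rest of the 29. In distal-only cells it had 146 RPKM in cell 56, 88.5 in cell 45, 53.9 in cell 20, 33.8 in cell 15, 19.1 in cell 6 and 18.5 in cell 8, and the rest of the 11 were below 1 RPKM. Cell 56 also had C1qb at 129 RPKM, under the macrophage-like level of 1000 RPKM, and an estimated depth of 0.911 M reads. The part of that C1qb signal in its Bmp7 value was not tested. The levels of detecting cells overlapped between the classes, and with 3 and 6 such cells they were not compared further. The detecting cells were 3 of 29 Wt1-only cells, 10.3% (2.19 to 27.4%), and 6 of 11 distal-only cells, 54.5% (23.4 to 83.3%). The ends of these intervals overlap. The both-class cells had 99.7 RPKM in cell 41, 6.09 in cell 23 and 5.86 in cell 36, and the only detecting neither-class cell was cell 37 with 5.83 RPKM. On the mean log2(RPKM + 1) scale, which understates changes of low genes, Wt1-only cells averaged 0.71 and distal-only cells 3.16. The difference of −2.46 put Bmp7 at percentile 0.844 of 12084 genes, counted from the most distal. A difference of 1 or more in size was reached by 17.3% of these genes, 7.77% higher and 9.53% lower in Wt1-only cells; a size of 2 or more was reached by 2.55%, 0.993% higher and 1.56% lower. Every detecting cell held at least 16 reads of Bmp7. These reads carry no molecular identifiers, so they are not counts of molecules.

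Bmper encodes a secreted protein with cysteine-rich repeats that binds BMPs and can limit or promote their signalling. Its 7 detecting Wt1-only cells had 575 RPKM in cell 29, 106 in cell 39, 65.6 in cell 55, 56.9 in cell 38, 36.8 in cell 24, 25.0 in cell 31 and 16.6 in cell 7. No distal-only cell reached 1 RPKM, with a highest value of 0.60 RPKM. Both-class cells 36 and 44 had 3.98 and 1.24 RPKM, and all 10 neither-class cells were below 1 RPKM. The high cells were thus all Wt1-only, at 24.1% of that class (10.3 to 43.5%), but 22 Wt1-only cells overlapped the distal-only range. With 0 of 11 distal-only cells detecting it, a share of up to 27.3% is allowed by a limit of 3 cells, and the exact interval ends at 28.5%, so the difference in shares is not resolved at this number of cells. Mean log2(RPKM + 1) was 1.47 in Wt1-only and 0.08 in distal-only cells, a difference of 1.39. It passed 1 in size, but fell to 0.70 with a pseudocount of 10 in place of 1. Cell 29, with 3550 reads, held 64.6% of the RPKM of Bmper summed over all cells; without it the difference was 1.11.

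Bmp2, a ligand close to Bmp4 in sequence, was scattered over the classes. The 6 detecting Wt1-only cells ranged from 3.23 RPKM in cell 14 to 41.0 in cell 49. The 3 distal-only cells had 35.8 RPKM in cell 56, 33.6 in cell 8 and 17.6 in cell 20. In the both class it had 72.8 RPKM in cell 54, 66.6 in cell 36 and 9.06 in cell 21. Macrophage-like cells also detected it, at 66.8 RPKM in cell 1 and 7.56 in cell 25, and the median of every class was below 1 RPKM. The ranges overlapped, shares were 20.7% (7.99 to 39.7%) of Wt1-only and 27.3% (6.02 to 61.0%) of distal-only cells, and the difference of mean log2 values was −0.64, under 1 in size.

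The receptor Bmpr1a, also known as ALK3, was detected in all classes except among macrophage-like cells. In Wt1-only cells its lowest, median and highest values were 0, 8.59 and 309 RPKM, and 4 of 29 cells reached 100 RPKM (cells 43, 28, 51 and 9). In distal-only cells they were 0.0957, 4.16 and 74.0 RPKM, and none of 11 reached 100 RPKM. The both-class cells ran from 1.95 to 54.0 RPKM with a median of 3.81, and all 7 detected it. All distal-only values lay within the Wt1-only range, in which these 4 cells and cell 29 (75.6 RPKM) lay above them. The difference of mean log2 values, Wt1-only (3.45) minus distal-only (2.80), was 0.64. The 5 macrophage-like cells had at most 0.488 RPKM, against a median of 7.07 RPKM in the other 52 cells.

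Smad6, which competes for activated receptors and Smads, was detected in few cells of any class. It had 6.78 RPKM in Wt1-only cell 31, 11.3 and 2.51 RPKM in distal-only cells 8 and 6, and 4.98 RPKM in both-class cell 12. Its highest value rested on 60 reads. With 1 of 29 Wt1-only and 2 of 11 distal-only cells the classes cannot be ordered, and the difference of mean log2 values was −0.40.

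Id2 was split into low and high cells within the Wt1-only class. There it was below 5 RPKM in 11 of 29 cells, from 0 to 3.71, while the other 18 ran from 35.5 RPKM in cell 49 to 1044 RPKM in cell 29. No Wt1-only cell lay between 3.71 and 35.5 RPKM. Among distal-only cells, cell 32 had 0 RPKM and cell 20 had 2.12 RPKM, and the other 9 ran from 36.8 to 1754 RPKM. Class medians were 124 RPKM in Wt1-only and 128 RPKM in distal-only cells, and the ranges overlapped up to 1044 RPKM, with distal-only cell 52 alone above it. The both-class cells ran from 7.87 to 216 RPKM. The difference of mean log2 values, Wt1-only (5.19) minus distal-only (6.04), was −0.84, under 1 in size, but single cells moved it: it was −1.45 without cell 32 and −0.37 without cell 52.

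Id3 was high in most cells with Pax8, reaching 100 RPKM in 44 of 50. Its lowest, median and highest values were 0, 694 and 2757 RPKM in Wt1-only cells and 31.3, 565 and 1411 RPKM in distal-only cells, and 26 of 29 and 9 of 11 cells reached 100 RPKM. Mean log2 values were 8.86 in Wt1-only and 8.41 in distal-only cells, a difference of 0.45 that was 0.11 without cell 32. Of the 7 members, 2 (Bmp7 and Bmper) passed a difference of 1 in size between these classes, Bmper not with a pseudocount of 10, beside 17.3% of all genes.

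**Figure D2:**
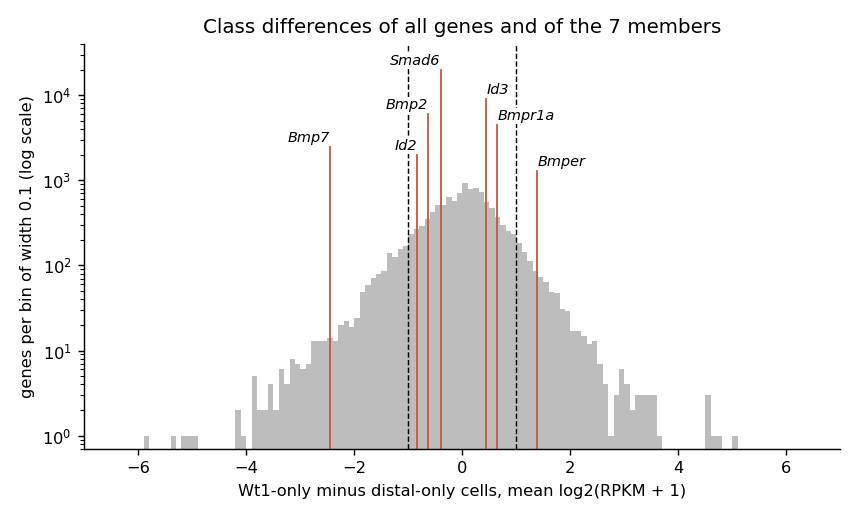
Number of genes (log scale) by the difference in mean log2(RPKM + 1), 29 Wt1-only minus 11 distal-only cells, for 12084 genes in grey, with the 7 members as lines whose heights carry no value and dashed lines at a difference of −1 and 1. Bmp7 at −2.46 and Bmper at 1.39 lie outside the dashed lines and the other 5 members inside them.

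The clearest contrast among the members lay between the macrophage-like cells and the rest. In the 5 macrophage-like cells Id3 had 0, 1.06, 1.57, 2.75 and 3.80 RPKM, the last resting on 4 reads. In the other 52 cells its lowest, median and highest values were 0, 620 and 2757 RPKM, and 46 of them reached 100 RPKM. Id2 in the same macrophage-like cells, in the order of cells 1, 25, 35, 46 and 58, had 719, 1045, 137, 107 and 253 RPKM, against a median of 129 RPKM in the other 52 cells. All 5 macrophage-like cells were thus low in Id3 while holding Id2 at 107 RPKM or more. Both ranges overlapped those of the other cells, in which cells 10, 43 and 44 were below 1 RPKM for Id3. Id3 averaged 1.31 on the log2(RPKM + 1) scale in macrophage-like cells and 8.64 in other cells, a difference of −7.32. For Id2 the averages were 8.27 in macrophage-like and 5.63 in other cells, a difference of 2.65. Of 12086 genes, 38.1% reached a difference of 1 or more in size and 14.1% a difference of 2 or more between these cells. In macrophage-like cells 14.1% were higher and 24% lower by 1 or more, and 6.3% were higher and 7.79% lower by 2 or more. The median depth was 1.10 M reads in macrophage-like and 1.50 M reads in other cells. Bmpr1a (−2.97) and Bmp7 (−1.36) were lower and Bmp2 (1.02) was higher in macrophage-like cells by more than 1, while Bmper (−0.86) and Smad6 (−0.14) differed by less. The Bmp2 difference rested on cell 1, and without that cell it was 0.0018. Bmp7 was detected in 0 of 5 macrophage-like cells, with an exact interval up to 52.2%, against 25% of the other 52, so these shares are not resolved. Beside Id3, its relative Id1 was detected in 1 of the 5 macrophage-like cells and in 34 of all 57.

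**Figure D3:**
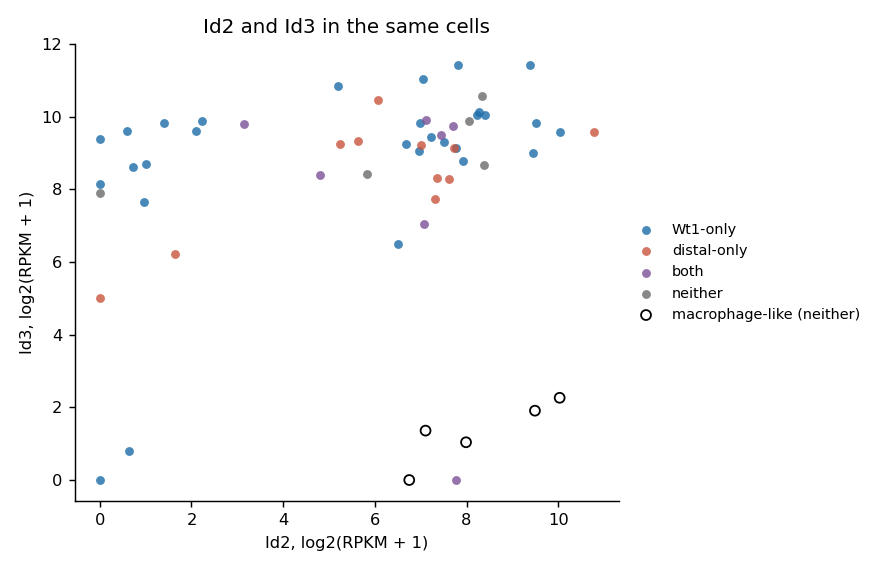
Id3 against Id2 in each of the 57 cells, both as log2(RPKM + 1), coloured by class, with the 5 macrophage-like cells as open circles. The macrophage-like cells have Id2 of 107 to 1045 RPKM, within the range of the other cells. Their low Id3 (0 to 3.80 RPKM) places them apart from the main group of cells high in both.

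Joint detection was counted and set beside each member's share of all cells. Id2 and Id3 shared 46 cells, which is 95.8% of the Id2 cells, against 93.0% of all cells with Id3, and 86.8% of the Id3 cells, against 84.2% of all cells with Id2. The ligands Bmp2 and Bmp7 shared 4 cells (8, 20, 36 and 56), 28.6% of Bmp2 and 30.8% of Bmp7 cells, where 22.8% of all cells had Bmp7 and 24.6% had Bmp2. Bmp7 and Bmper shared only cell 36, a both-class cell, which is 7.69% of Bmp7 and 11.1% of Bmper cells. Bmp2 or Bmp7 was detected in 23 cells, of which 17 also detected Bmpr1a; these are 73.9% of the ligand cells, against 68.4% of all cells with Bmpr1a, and 43.6% of the Bmpr1a cells. No joint pattern is read from these counts. No cell detected all 7 members, and the most common number was 3, in 23 cells. Spearman's rho over the 50 cells with Pax8 at 5 RPKM or more was 0.39 for Id2 and Id3 and −0.27 for Bmp7 and Id3. It was 0.19 for Bmpr1a and Id2, 0.15 for Bmp2 and Bmp7 and 0.13 for Bmp7 and Id2, and lay between −0.11 and 0.08 for the other 5 pairs of members detected in at least 10 cells. These cells share 1 pool and 1 sequencing lane and differ in depth, so the values are descriptions.

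The genes whose levels followed each member most closely over those 50 cells were taken from 7712 candidates by Spearman's rho. For Bmp7 they were Tsc22d1 (0.54), Ankmy2 (0.54) and the semaphorin and VEGF receptor Nrp1 (0.53). For Bmp2 they were Cmtm6 (0.55), AW146154 (0.51) and 1810026J23Rik (0.51). For Bmpr1a they were Ilk, the integrin-linked kinase (0.53), Srp68 (0.50), a subunit of the signal recognition particle, and Fyttd1 (0.49). For Id2 they were 4933407C03Rik (0.54), Kazald1 (0.53) and Gm6357 (0.52). For Id3 they were Glo1 (0.55), Ndufaf3 (0.45) and Tmem100 (0.44). The highest of these values was 0.55, and of the 15 genes 5 stayed among the first 3 of their member when Pearson's r of log2 values was used. By member, 0 of 3 stayed for Bmp2 and for Id3, 1 for Bmp7, and 2 each for Bmpr1a and Id2. The named genes are the highest of 7712 candidates, and the rho that unrelated genes would reach was not computed.

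Beyond the 7 members, 32 of 55 further BMP pathway genes had a row. Of the 39 genes with members included, 14 (35.9%) were detected in at least 29 cells, against 28.0% of all 12084 genes. The difference of 1 was passed by 5 of 39 (12.8%), 3 higher and 2 lower in Wt1-only cells, against 17.3% of all genes, and the median difference was 0.35 against 0.03. Among ligands, Bmp4 was detected in 34 cells, more than Bmp2 or Bmp7, with medians of 9.68 RPKM in Wt1-only and 2.43 RPKM in distal-only cells. Bmp1, a protease despite its name, was detected in 24 cells. Among secreted or membrane modulators, the follistatin-like protein Fstl1 was detected in all 57 cells with a median of 526 RPKM, and the glypican Gpc3 in 55 with a median of 127 RPKM. Twsg1, a BMP-binding protein, was detected in 32 cells and the membrane protein Crim1 in 29. Bambi, a pseudoreceptor without a kinase, was detected in 31 cells and differed by 1.11, with medians of 1.85 RPKM in Wt1-only and 0.557 RPKM in distal-only cells.

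Among the Smads, Smad5 was detected in 33 cells and was the pathway gene other than Bmp7 that was lower by more than 1 in Wt1-only cells. Its difference was −1.16, with medians of 1.19 RPKM in Wt1-only and 17.2 RPKM in distal-only cells. Its relative Smad1 was detected in 20 cells with a difference of 0.58, and the shared partner Smad4 in 33 with −0.45. Among inhibitors inside the cell, Skil was detected in 35 cells, Ski in 22 and Smad7 in 21, against 4 for Smad6. Among targets, Hey1, a transcriptional repressor that also responds to Notch, was detected in 45 cells and differed by 1.57, with medians of 77.8 RPKM in Wt1-only and 57.0 RPKM in distal-only cells. Id1 was detected in 34 cells, with medians of 33.3 RPKM in Wt1-only and 2.15 RPKM in distal-only cells and a difference of 0.72.

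**Figure D4:**
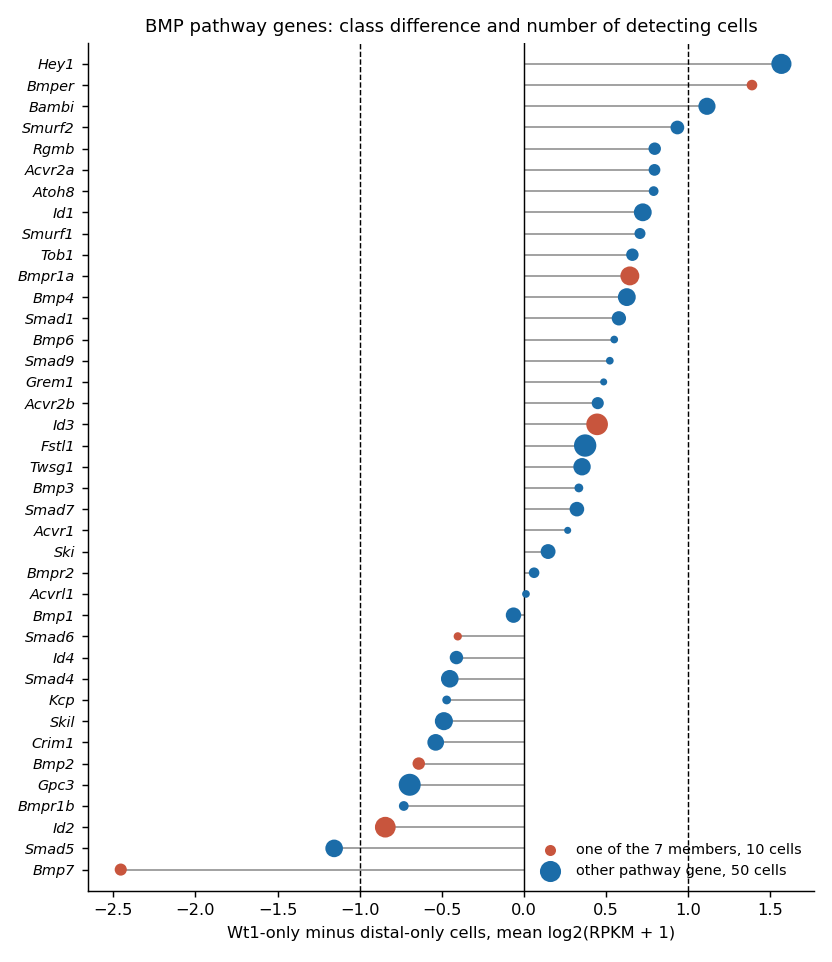
Difference in mean log2(RPKM + 1), 29 Wt1-only minus 11 distal-only cells, for the 39 BMP pathway genes with a row, with point area growing with the number of detecting cells among 57 and dashed lines at −1 and 1. Hey1, Bmper and Bambi lie above 1 and Bmp7 and Smad5 below −1.

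A smaller table of the authors set a proximal against a distal class in 28 of the cells and listed 787 genes. The sources used here do not say which of these cells the authors called proximal; by the levels of Wt1, Sox9 and Papss2 16 of them were Wt1-only and 10 distal-only. In the authors' deposited table the signed fold, positive where the proximal class was higher, was −9.67 for Bmp7, 6.37 for Bmper and 1.88 for Id3. The authors' deposited table also lists Bambi at 6.84 and Smad1 at 4.67, and the other 4 members are not among its genes. These cells are also among the 57 above, so the values are no independent support. RPKM values of a cell differ between the tables, as for Id3 in cell 18 with 1428 in the authors' deposited smaller table and 2757 in the larger one, and levels were never mixed.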

How the data were processed

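Cells were captured singly with the Fluidigm C1, amplified with the SMARTer kit, made into Nextera XT libraries without strand or molecular identifiers, and sequenced on a HiSeq2500, per the labels' protocols. TopHat 1.4.1, DESeq and mm9 appear without roles in the submitters' processing notes. The authors deposited RPKM values, not logged, of 12087 genes in 57 cells, all of 1 lane per the file headers. A count of cells above RPKM 3, whose lowest value is 2, and the signed fold of the smaller deposited table are treated as scores of the authors. No column of per-sample values was left unmapped (0 other columns).

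A gene was detected at RPKM 1. Classes used Wt1 and Sox9 or Papss2 at RPKM 20, and differences are of class means of log2(RPKM + 1). Wt1, Sox9 and Papss2 stayed out of the background. Because low values are whole multiples of 1 read (90.3% of values up to 20 reads lay within 0.1 of a whole number), reads and depth were recovered, with the absolute scale from 351 genes of a single transcript. Depth is therefore an estimate, and intervals and limits cover the sampling of cells, not error in reads. RPKM counts shared by overlapping or antisense genes cannot be separated without strand. Recovery and class differences were checked on simulated data. Cells are not replicates, and no test was made. The members and gene lists were chosen with earlier results of these data known. Named pathway genes were those detected in at least 20 cells or past a difference of 1, and the 3 genes most alike were named for each member detected in at least 10 cells. Other genes on the lists were not analysed here. Python 3.11.15, pandas 2.3.3 and scipy 1.17.1 were used.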

Additional observations from a re-analysis of the deposited data

How the results depend on the processing

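No paired analysis was possible because the cells form 1 group of 1 pool and no test was made. No class difference of a member changed sign under the alternatives run. Bmp7 stayed past 1 in size throughout (−4.16 with pseudocount 0.1, −1.04 with pseudocount 10, −1.70 with overlapping classes, and −2.77 to −2.05 leaving out 1 cell). Bmper passed 1 except with pseudocount 10 (0.70), and ran from 1.11 to 1.45 leaving out 1 cell. Id2 passed 1 with class cutoff 50 (−1.35), with pseudocount 0.1 (−1.07) and without cell 32, and ran from −1.45 to −0.37. Leaving out 1 cell gave −0.81 to −0.26 for Bmp2 (−0.26 without cell 56), 0.38 to 0.99 for Bmpr1a (0.38 without cell 6 and 0.99 without cell 8), −0.50 to −0.09 for Smad6 (−0.09 without cell 8) and 0.11 to 0.76 for Id3 (0.76 without cell 43). Between macrophage-like and other cells, leaving out 1 cell, chosen after seeing the data, gave 0.0018 (without cell 1) to 1.52 for Bmp2, −1.39 to −1.24 for Bmp7, −0.92 to −0.70 for Bmper, −3.06 to −2.87 for Bmpr1a, −0.24 (without cell 1) to −0.07 for Smad6 (without cell 8), 2.21 to 3.03 for Id2 and −7.56 to −6.996 for Id3. The share of all genes past the difference was 2.55% at size 2, 34.9% with pseudocount 0.1 and 3.46% with pseudocount 10, so a size of 1 is not the same bar on each scale. Detection moved beyond its interval for Bmper (29.8% of cells at any value above 0) and Bmpr1a (87.7% at any value above 0 and 47.4% at RPKM 5). A minimum of 10 reads, chosen after seeing the data, left every share within its interval. Over all 57 cells rho was 0.23 for Id2 and Id3, −0.14 for Bmp7 and Id3, 0.15 for Bmp7 and Bmpr1a, 0.031 for Bmpr1a and Id2 and 0.033 for Bmpr1a and Id3. The last, at −0.11 over the Pax8 cells, changed sign, as did Bmp2 and Id2 (−0.07 over the Pax8 cells, 0.02 over all). Of the 15 most alike genes, 5 remained with Pearson's r and 7 over all cells.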

Other observations

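Outside the macrophage-like cells, Id3 was below 1 RPKM in cells 10, 43 and 44, which were chosen after their values were seen. Cell 10, a Wt1-only cell, had the highest Bmp7 (178 RPKM) and the highest Bmp4 (245 RPKM) of all 57 cells. Its Id2 (0.545 RPKM) and Id3 (0.727 RPKM) rested on 1 read each, and Id1 and Id4 were at 0 RPKM. Id1 was detected in 34 and Id4 in 17 of 57 cells, so a value below 1 RPKM is common for both. Of the 29 Wt1-only cells, 18 detected Id1 and 18 had Id2 at 5 RPKM or more, so low values of these are common too. The Hey1 level of cell 10 was 79.2 RPKM and its Pax8 level 157 RPKM, at an estimated 1.44 M reads. Cell 43, also Wt1-only, had the highest Bmpr1a (309 RPKM) of all cells, with Id1, Id2, Id3 and Id4 all at 0 RPKM and Hey1 at 0.356 RPKM, at 1.27 M reads. Cell 44, of the both class, had Id3 at 0 RPKM beside Id1 at 241 RPKM and Id2 at 216 RPKM. These are values of single cells and carry no error.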
